A study of Homo sapiens with 4 samples.

Results

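The 10 genes described here encode scaffold proteins of the postsynaptic density: DLGAP1 to DLGAP4, DLG2 to DLG4 and SHANK1 to SHANK3. They were taken by symbol from the 62696 genes of the count tables, and no measured value entered the choice. The count columns of the labelled knockdown files are headed GKAP_KIF27, unlike their titles, and GKAP is a synonym of DLGAP1, so its scaffold partners were set beside it. Of the 10 genes, 9 reached a mean CPM (counts scaled to a common library size) of 1, as did 15880 genes in all. DLGAP2, at 0.967 CPM, fell just short. The libraries were made from NT2 (NTERA-2) cells, which derive from a human embryonal carcinoma and are able to differentiate into neurons, grown in medium with serum. One library came from cells with an empty vector, labelled wild type, and 3 from cells labelled as HYDIN2 knockdown. The labels do not say how the knockdown was made or whether the 3 replicates were separate cultures, so their spread may be technical.

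At excitatory synapses these proteins are stacked in layers under the membrane. DLG proteins, the PSD-95 family of membrane-associated guanylate kinases, bind the tails of glutamate receptors and adhesion molecules through PDZ domains. DLGAP proteins (also called GKAP or SAPAP) bind the guanylate kinase domain of DLG proteins on one side and the PDZ domain of SHANK proteins on the other. SHANK proteins connect this stack to HOMER and to the actin cytoskeleton. DLG3 and DLG2 also take part in the polarity and junctions of cells that have no synapses.

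HYDIN2, the targeted gene, had 12 counts with the empty vector and 150, 112 and 11 counts in labelled knockdown replicates 1, 2 and 3. Those counts correspond to 0.50, 2.41, 1.88 and 0.352 CPM, so the targeted gene did not check the labels, and directions below are those of libraries labelled knockdown. Library totals ran from 25181737 counts in the empty vector library to 62904698 in replicate 1, and 3 counts were worth between 0.0482 and 0.125 CPM. Replicates 1 and 2 lay at least 2-fold apart in 0.302% of the 15880 genes, whereas replicate 3 lay 2-fold from replicate 1 in 21.6% and from replicate 2 in 22.9%. The empty vector library lay 2-fold from replicates 1, 2 and 3 in 18.8%, 17.1% and 27.2%. Replicate 3 was thus further from the other replicates than the empty vector library was, and the counts and genes that turn on it are also given without it.

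The comparison asked how the scaffold genes differed between the labelled knockdown libraries and the empty vector library. DLGAP1, DLGAP4, DLG2, SHANK1 and SHANK2 were higher in each of the 3 labelled knockdown libraries, by 1.32 to 2.63 times in the mean. DLGAP3 was lower in each of them, at 0.684 times. DLG3 and DLG4 were higher in replicates 1 and 2 and lower in replicate 3, and SHANK3 was the reverse. The empty vector library lay below all 3 labelled knockdown libraries in 5 of the 9 genes that reached 1 CPM, against 30.1% of all genes, and above all 3 in 1 gene, against 34.2%. Without replicate 3 these counts were 7, with DLG3 and DLG4 added, against 48.8%, and 2, with SHANK3 added, against 44.1%. In the same 5 genes the 95% counting interval of the ratio lay above 1 in each library, which held for 17.7% of all genes. No scaffold gene was at least 2-fold higher or at least 2-fold lower in each labelled knockdown library, which 3.65% and 2.72% of genes were. At 1.5-fold, DLGAP1, DLG2 and SHANK1 were higher in each, against 10% of all genes.

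With 1 empty vector library there is no replicate check on that side. edgeR's quasi-likelihood test takes all its spread from the labelled knockdown libraries, and the single library is assumed to vary like them. It called 0 of 26029 genes after Benjamini-Hochberg adjustment (0%), with 3023 genes (11.6%) at an unadjusted p under 0.05. Among the scaffold genes, edgeR's adjusted p ran from 0.376 for DLG2 to 0.941 for DLGAP2, and DLG2 was the only one with an unadjusted p under 0.05, at 0.0199. The Wald test of DESeq2 called 271 genes (1.72% of those given an adjusted p) and none of the scaffold genes. Without replicate 3, edgeR called 9 of the 10 scaffold genes, 7 higher and 2 lower. That fit rests on the close pair of replicates 1 and 2 and called 44.7% of 25016 genes, 23.5% as higher and 21.2% as lower.

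**Figure D1:**
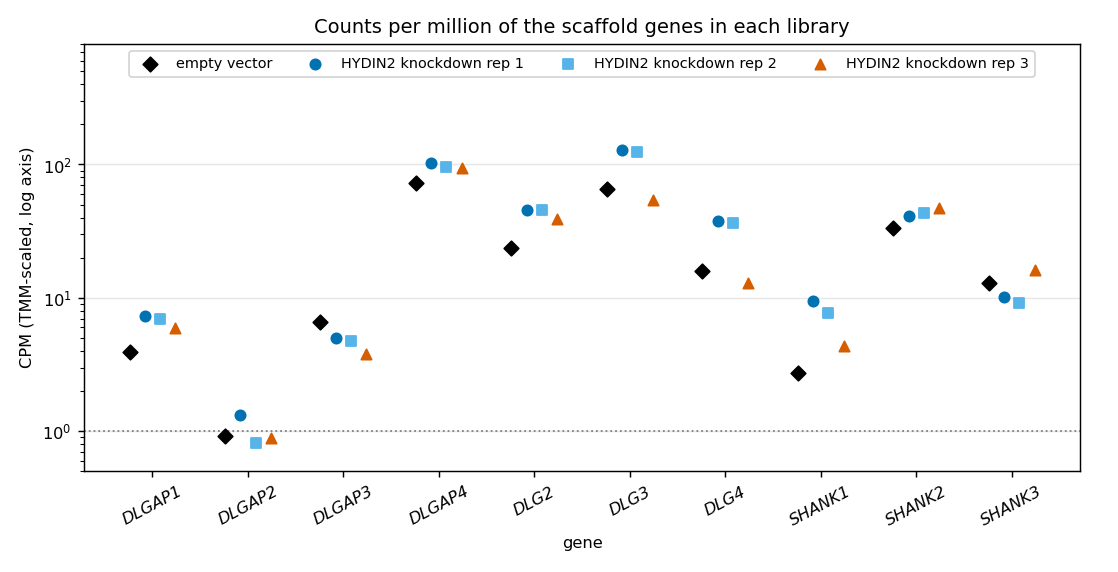
CPM of the 10 scaffold genes in each of the 4 libraries on a log axis, with the dotted line at the minimum of 1 CPM. DLGAP4 and DLG3 have the highest CPM, DLGAP2 lies around the line, and the replicate 3 points of DLG3 and DLG4 lie beside those of the empty vector library.

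**Figure D2:**
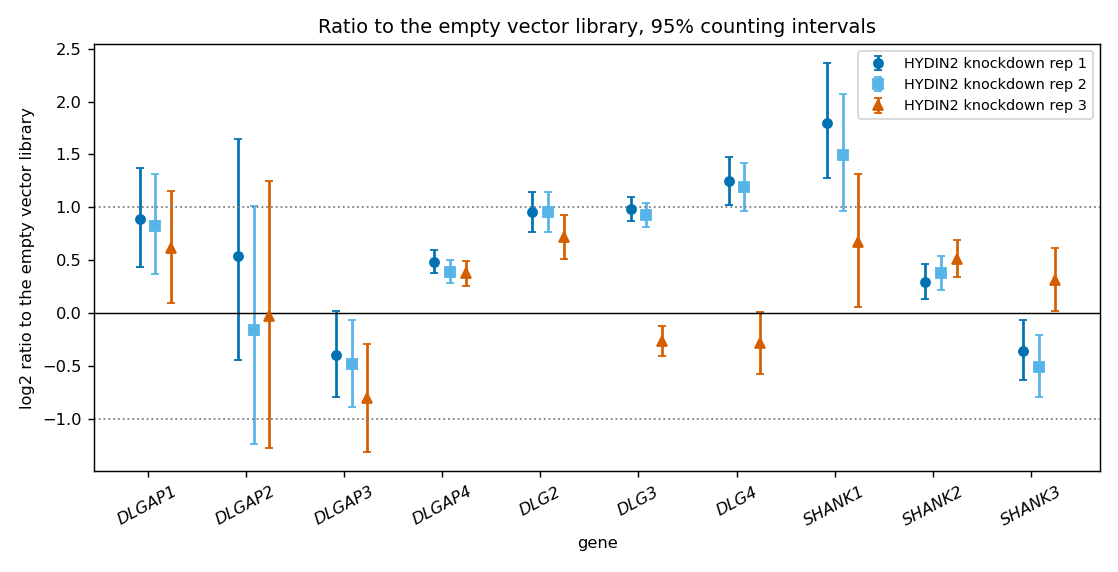
Log2 ratio of each labelled knockdown library to the empty vector library for each gene, with 95% exact binomial counting intervals and dotted lines at 2-fold. All 3 intervals lie above 0 for DLGAP1, DLGAP4, DLG2, SHANK1 and SHANK2, while those of replicate 3 lie apart from the other replicates for DLG3, DLG4 and SHANK3.

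Among the linker proteins, DLGAP1 (ENSG00000170579.17; GRCh38 chromosome 18, 3496032 to 4455335, minus strand) had 3.92 CPM with the empty vector and 7.26, 6.95 and 5.99 CPM in labelled knockdown replicates 1, 2 and 3. Every labelled knockdown library lay above the empty vector library, with counts of 452, 415 and 187 against 94. The mean log2 difference was 0.77 ± 0.14 (SD, n = 3), larger than the spread between replicates, with an adjusted p of 0.495 in edgeR's test. This spread, here and for the genes below, is that of the labelled knockdown libraries only. It holds no variation of the single empty vector library. DLGAP1 is the founding GKAP protein, and the libraries whose columns carry that name did not have less of it. Its span holds DLGAP1-AS1 and DLGAP1-AS2 on the other strand. DLGAP1-AS2 had 963 counts with the empty vector and 3795, 3967 and 964 in the replicates, more than DLGAP1 in every library. No exon of DLGAP1 overlaps an exon of either antisense gene in GENCODE 29. The strand setting of the counting is not given in the sources used here.

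DLGAP4 (ENSG00000080845.19; chromosome 20, 36306336 to 36528637, plus strand) is the family member found most widely outside the brain. It had 73.0 CPM with the empty vector and 102.2, 95.9 and 94.7 CPM in replicates 1, 2 and 3. The 3 labelled knockdown libraries lay close together above the empty vector library, with a mean log2 difference of 0.42 ± 0.06 (SD, n = 3), larger than the spread. Its adjusted p in edgeR's test was 0.517. DLGAP4-AS1, whose exons share 428 nt with those of DLGAP4 on the other strand, had only 58 counts against 1753 for DLGAP4 in the empty vector library.

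DLGAP3 (ENSG00000116544.12; chromosome 1, 34865436 to 34929585, minus strand), a protein of striatal synapses, had 6.58 CPM with the empty vector and 5.01, 4.72 and 3.78 CPM in the replicates. It was the only one of the 9 genes to lie lower in each labelled knockdown library, with a mean log2 difference of -0.55 ± 0.21 (SD, n = 3) and an adjusted p of 0.608 in edgeR's test. The ratio for replicate 1 was 0.761 with an interval that reached 1.01, and those for replicates 2 and 3 were 0.718 (0.541 to 0.958) and 0.574 (0.403 to 0.814). No other gene of the count tables overlaps DLGAP3 by its GENCODE 29 position. DLGAP2 (ENSG00000198010.13; chromosome 8, 737596 to 1708474, plus strand) had 22 counts with the empty vector and 83, 49 and 28 in the replicates. These are 0.916, 1.33, 0.821 and 0.896 CPM. The 3 intervals of its ratio all spanned 1, and at this depth a difference could not be detected.

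Among the DLG proteins, DLG2 (PSD-93; ENSG00000150672.19; chromosome 11, 83455012 to 85627922, minus strand) had 23.5 CPM with the empty vector and 45.6, 45.6 and 38.7 CPM in labelled knockdown replicates 1, 2 and 3. All 3 labelled knockdown libraries were higher, by 1.94 (1.71 to 2.21), 1.94 (1.71 to 2.21) and 1.65 (1.43 to 1.90) times. Its mean log2 difference, 0.88 ± 0.14 (SD, n = 3), exceeded the spread. DLG2-AS2, whose exons share 291 nt with DLG2 on the other strand, had 10 counts with the empty vector and 93 in replicate 3, against 564 and 1208 for DLG2.

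DLG3 (SAP102; ENSG00000082458.12; chromosome X, 70444861 to 70505490, plus strand), the family member prominent at young synapses, had 65.0 CPM with the empty vector and 128.3, 123.8 and 54.0 CPM in the replicates. Replicates 1 and 2 were 1.97 and 1.90 times as high as the empty vector library, whereas replicate 3 was 0.831 times as high with an interval from 0.753 to 0.917. The mean log2 difference, 0.55 ± 0.71 (SD, n = 3), was smaller than its spread and was 0.95 without replicate 3.

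DLG4 (PSD-95; ENSG00000132535.22; chromosome 17, 7187169 to 7219841, minus strand), the main scaffold of mature excitatory synapses, followed the same order. It had 15.8 CPM with the empty vector and 37.4, 36.1 and 13.0 CPM in replicates 1, 2 and 3. The ratios were 2.37 (2.03 to 2.78), 2.29 (1.96 to 2.68) and 0.821 (0.670 to 1.01), so replicate 3 did not differ from the empty vector library beyond counting error. The mean log2 difference was 0.72 ± 0.87 (SD, n = 3), smaller than its spread, and was 1.22 without replicate 3. DLG3 and DLG4 were the scaffold genes with at least 2-fold higher CPM in both replicates 1 and 2 than in replicate 3, as were 13.4% of all genes. ACADVL, a mitochondrial fatty acid oxidation gene whose exons share 85 nt with DLG4 on the other strand, had 53.9 CPM with the empty vector and 38.7, 42.5 and 38.4 CPM in the replicates, an order unlike that of DLG4.

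Promoters of the 3 DLG genes are shown because DLG3 and DLG4 shared an order of libraries that DLG2 did not. RefSeq windows on GRCh38.p14, from 250 bases before to 50 bases after a start site, were found for 6 of the 10 genes. These 6 had 23 windows in all, and the window nearest the GENCODE gene start was taken. Each DLG gene had other windows, not shown, with other motif counts. The start taken for DLG2 lies 451 nt from its GENCODE gene start. Capitals mark the GC box GGGCGG and the CCAAT box on either strand, and neither motif overlaps the other. The windows are chr11:85628324-85628623 on the minus strand for DLG2, chrX:70444585-70444884 on the plus strand for DLG3 and chr17:7219787-7220086 on the minus strand for DLG4, each written 5′ to 3′.
DLG2: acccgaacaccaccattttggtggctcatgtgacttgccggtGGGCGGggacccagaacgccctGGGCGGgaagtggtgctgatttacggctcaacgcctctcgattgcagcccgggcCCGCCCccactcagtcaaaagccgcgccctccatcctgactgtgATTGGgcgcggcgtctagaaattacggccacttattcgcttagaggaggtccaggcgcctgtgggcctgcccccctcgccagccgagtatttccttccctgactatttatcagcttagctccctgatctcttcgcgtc
DLG3: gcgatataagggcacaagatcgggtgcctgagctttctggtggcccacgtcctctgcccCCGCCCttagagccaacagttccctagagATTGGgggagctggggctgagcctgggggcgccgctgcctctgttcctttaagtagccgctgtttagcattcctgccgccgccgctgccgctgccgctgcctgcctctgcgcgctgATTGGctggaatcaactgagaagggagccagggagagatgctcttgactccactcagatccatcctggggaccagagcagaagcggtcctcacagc
DLG4: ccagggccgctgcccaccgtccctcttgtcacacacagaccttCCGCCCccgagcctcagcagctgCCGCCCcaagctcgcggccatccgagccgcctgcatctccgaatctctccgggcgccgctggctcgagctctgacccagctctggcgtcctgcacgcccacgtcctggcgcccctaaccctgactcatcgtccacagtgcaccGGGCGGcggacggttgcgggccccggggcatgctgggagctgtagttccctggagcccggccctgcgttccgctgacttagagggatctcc
The window of DLG2 held 3 GC boxes and 1 CCAAT box, that of DLG3 held 1 and 2, and that of DLG4 held 3 GC boxes and no CCAAT box. Of all 35116 windows, 45% held a GC box and 34.6% a CCAAT box. CG dinucleotides numbered 22, 15 and 28 in DLG2, DLG3 and DLG4, with a median of 14 over all windows. The TATA box TATAAA (11.5% of all windows), the cAMP response element TGACGTCA (1.85%) and TTCAGCACC (0.376%), a part of the site of REST, a repressor of neuronal genes, did not occur in these 3 windows on either strand.

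Among the SHANK proteins, SHANK1 (ENSG00000161681.17; chromosome 19, 50661827 to 50719450, minus strand), found mostly in brain, had 2.75 CPM with the empty vector and 9.54, 7.76 and 4.39 CPM in labelled knockdown replicates 1, 2 and 3. All 3 were higher than the empty vector library, replicate 3 the least, with ratios of 3.47 (2.42 to 5.13), 2.82 (1.95 to 4.20) and 1.60 (1.04 to 2.50). The empty vector library had 66 counts of SHANK1, which sets the width of these intervals. The mean log2 difference, 1.31 ± 0.58 (SD, n = 3), was the largest of the 10 genes and was 1.63 without replicate 3, and its adjusted p in edgeR's test was 0.452. No other gene of the count tables overlaps SHANK1 by its GENCODE 29 position. SHANK1 and DLG4 were at least 2-fold higher in both replicates 1 and 2, as were 9.54% of all genes.

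SHANK2 (ENSG00000162105.21; chromosome 11, 70467856 to 71252577, minus strand), which is also made in epithelia, had 33.3 CPM with the empty vector and 40.8, 43.2 and 47.5 CPM in the replicates. Here replicate 3 was the highest, and the mean log2 difference was 0.39 ± 0.11 (SD, n = 3), larger than the spread. SHANK3 (ENSG00000251322.11; chromosome 22, 50674415 to 50733298, plus strand), the gene of the Phelan-McDermid syndrome region, had 13.0 CPM with the empty vector and 10.1, 9.13 and 16.1 CPM in the replicates. Replicates 1 and 2 were 0.782 (0.644 to 0.954) and 0.705 (0.577 to 0.864) times as high as the empty vector library, and replicate 3 was 1.24 (1.01 to 1.53) times as high. The SHANK3 libraries labelled knockdown thus lay on both sides of the empty vector library, and the spread exceeded the mean log2 difference, -0.18 ± 0.43 (SD, n = 3). It was -0.43 without replicate 3, -0.0951 without replicate 1 and -0.0201 without replicate 2. Replicate 3 was the lowest of the 3 labelled knockdown libraries for SHANK1 and the highest for SHANK3.

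Levels of different genes were compared as CPM per kilobase of the longest annotated transcript. By the mean of the 4 libraries, DLGAP4 was highest, from 14.4 to 20.2 CPM per kilobase, followed by DLG3, from 8.84 to 21.0. DLG2, SHANK2 and DLG4 followed, with levels between 1.90 and 5.78 per kilobase. SHANK3, DLGAP3, SHANK1 and DLGAP1 came next, between 0.414 and 2.18, and DLGAP2 was last, between 0.0814 and 0.132. The ranges of neighbours in this order overlapped except between DLG3 and DLG2 and between DLGAP1 and DLGAP2. With the length of all annotated exons merged, a choice made after seeing the data, DLG3 came before DLGAP4 and DLG4 before DLG2.

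In the DLGAP family, DLGAP4 made up 85.8% of the length-scaled level with the empty vector and between 88.9% and 90.5% in the labelled knockdown libraries. DLGAP3 made up 10.1% with the empty vector and between 4.73% and 5.75% in the others, while DLGAP1 went from 3.48% to between 4.33% and 4.88%. DLG3 was the main one of the 3 DLG genes, at 66.8% with the empty vector and 65.1%, 64.7% and 56.5% in replicates 1, 2 and 3. SHANK2 was the main SHANK gene by the longest transcript, between 61.2% and 66.2% in all 4 libraries. SHANK1 took 7.16% with the empty vector and 19.8%, 16.4% and 8.25% in the replicates, and SHANK3 took 30.3%, 18.9%, 17.4% and 27.2%. Replicates 1 and 2 thus had the higher shares of SHANK1 and the lower shares of SHANK3. The lead of SHANK2 depended on the length used. With all annotated exons merged, SHANK2 and SHANK3 were close with the empty vector, at 1.77 and 1.74 CPM per kilobase. In replicate 3 they were at 2.53 and 2.16.

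**Figure D3:**
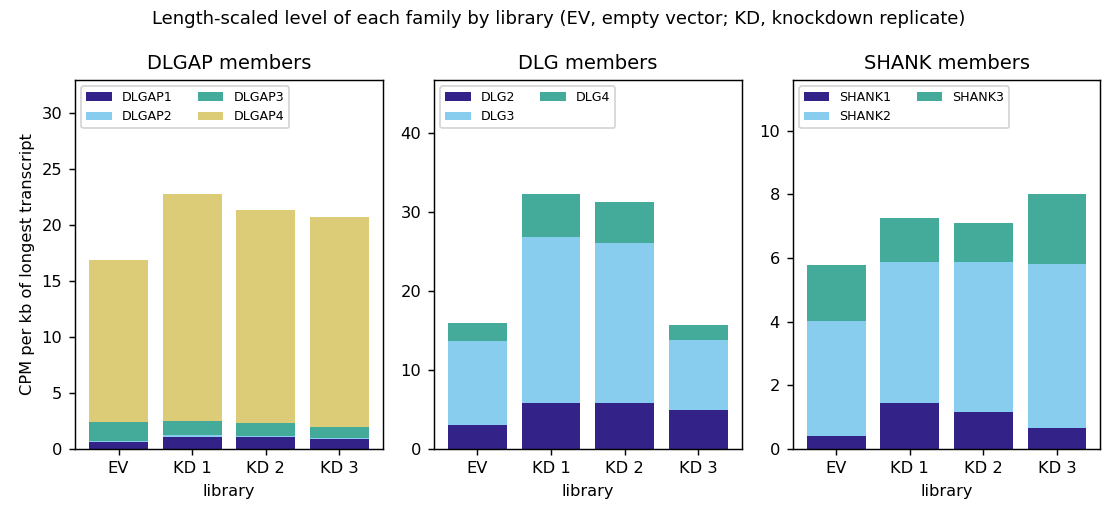
Summed CPM per kilobase of the longest transcript for the DLGAP, DLG and SHANK genes in the empty vector library (EV) and labelled knockdown replicates 1 to 3 (KD), stacked by gene. DLGAP4, DLG3 and SHANK2 form the largest part of each stack, and the DLG stack of replicate 3 is as low as that of the empty vector library.

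The scaffold genes have long transcripts, with a median of 6759 nt for the longest one per gene against 3519 nt over 15485 genes tested. Their GC content ran from 43.1% in DLG2 to 68.9% in SHANK1. Across those genes the log2 difference from the empty vector library rose with transcript length, with a Spearman correlation of 0.35, 0.30 and 0.46 in labelled knockdown replicates 1, 2 and 3. With GC content it was -0.18, -0.19 and -0.13. Genes in these correlations share their libraries and are not independent replicates. When smooth trends on length and GC content were removed, DLGAP1, DLGAP4, DLG2 and SHANK1 still lay higher in each labelled knockdown library, as 25.9% of all genes did. Their mean log2 differences were then 0.41, 0.35, 0.35 and 1.10, and in replicate 3 alone they were 0.07, 0.16, 0.05 and 0.16. SHANK2 changed direction, from 0.39 to -0.18, and lay lower in each library. SHANK3 then lay lower in each library as well, with a mean of -0.49, and DLGAP3 kept its direction at -0.43. These 3 of the 9 genes compare with 32.7% of all genes that lay lower in each library. In replicates 1 and 2, DLG3 stayed at 0.76 and 0.77 and DLG4 at 0.95 and 0.97 after the removal, whereas in replicate 3 they were -0.69 and -0.81. Their means went from 0.55 to 0.28 and from 0.72 to 0.37. The part of transcript length in these differences was not tested beyond this removal.

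**Figure D4:**
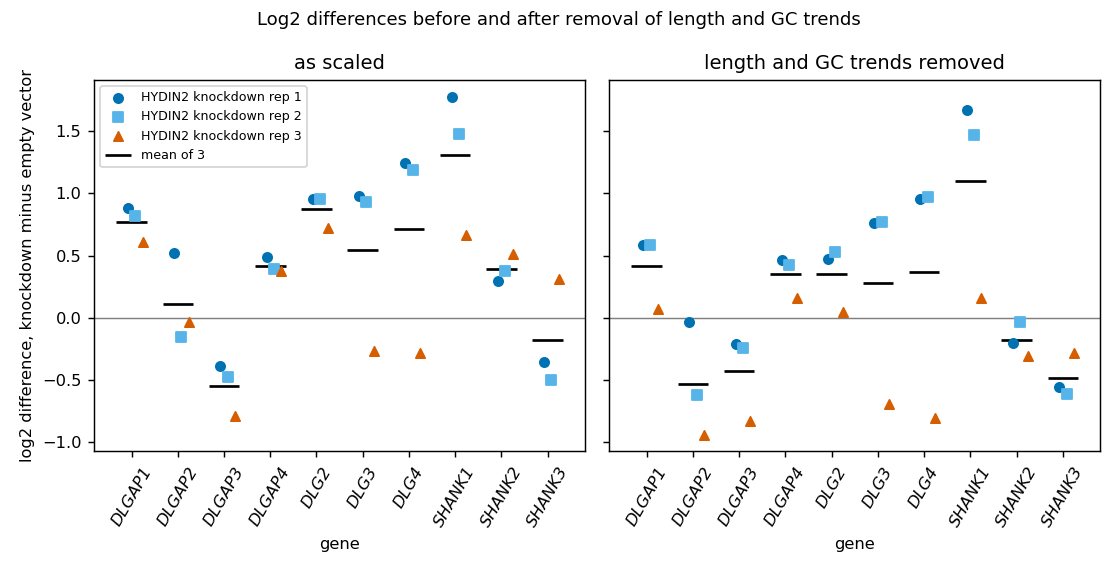
Log2 difference of each labelled knockdown library from the empty vector library for the 10 genes, as scaled (left) and after smoothed length and GC effects were taken out (right), with bars at the mean of 3. The replicate 3 points move down most, and SHANK2 and DLGAP2 move from a mean above 0 to one below 0.

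Partner genes of the synapse were then set beside the scaffolds, from lists chosen by function. The median of the mean log2 difference was 0.55 over the 9 scaffold genes with at least 1 CPM, and -0.02 over all 15880 genes. Of all 15880 genes, 3.65% were at least 2-fold higher in each labelled knockdown library, the share to set beside each list's count below. Glutamate receptor and auxiliary subunits (13 of 22 genes with at least 1 CPM) had a median of 0.76, and 4 of the 13 were at least 2-fold higher in each labelled knockdown library. These were CACNG8, an AMPA receptor auxiliary subunit, GRIN2B and GRIN3A, NMDA receptor subunits, and GRIA1, an AMPA receptor subunit. CACNG8 had 0.750 CPM with the empty vector and reached the minimum only through its higher labelled knockdown libraries, so its place in that count is no separate evidence. GRIN2B, whose tail binds DLG proteins, had 14.0 CPM with the empty vector and 42.7, 46.9 and 35.6 CPM in replicates 1, 2 and 3. After removal of length and GC trends its log2 differences were 0.72, 0.91 and -0.24, and replicate 3 was no longer higher. GRIN1, the obligatory subunit of NMDA receptors, stayed near or below 1 CPM, with 0.333, 1.08, 0.402 and 0.192 CPM. It was picked after its values were seen, as were HOMER1 and DYNLL1 below.

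Postsynaptic adaptors (23 of 25 genes) had a median of -0.05, and 2 of the 23 were at least 2-fold higher in each labelled knockdown library. One of them was CNKSR2, a scaffold also called MAGUIN, which had 15.4 CPM with the empty vector and 35.0, 34.8 and 32.2 CPM in the replicates. It was thus higher by similar amounts in all 3 libraries, unlike DLG4. HOMER1, which joins SHANK proteins to metabotropic glutamate receptors, had between 42.6 and 43.9 CPM in all 4 libraries. DYNLL1, a dynein light chain that binds DLGAP1, had 445.1 CPM with the empty vector and 231.3, 259.8 and 263.5 CPM in the replicates.

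Synaptic adhesion genes (21 of 22) had a median of 0.53, and ADGRL3, a latrophilin receptor, was the 1 gene at least 2-fold higher in each, with 13.4 CPM against 30.0, 28.7 and 31.6 CPM. Presynaptic genes (14 of 14) had a median of 0.33, made up of 0.56 and 0.50 for replicates 1 and 2 but -0.03 for replicate 3. BSN and PCLO, large scaffolds of the presynaptic active zone, were at least 2-fold higher in each. PCLO had 13.0 CPM with the empty vector and 60.8, 64.9 and 28.6 CPM in the replicates, and BSN had 5.71, 27.7, 24.5 and 15.9 CPM. After trend removal the log2 differences were 1.41, 1.56 and -0.21 for PCLO and 1.66, 1.57 and 0.31 for BSN, so replicate 3 no longer passed 2-fold for either. Other membrane-associated guanylate kinases (14 of 14) had a median of 0.28, and 2 of the 14 were at least 2-fold higher in each, among them MAGI1, a protein of cell junctions. After removal of length and GC trends the medians were 0.35 for the scaffolds, 0.46 for glutamate receptors, 0.39 for adhesion genes, 0.30 for presynaptic genes, -0.10 for adaptors and -0.19 for other guanylate kinases, against -0.03 for all genes. Of the partner genes named above as 2-fold higher in each library, only CACNG8 was still so after that removal, as were 2.54% of all genes and none of the scaffolds. No gene of these lists with a mean of at least 1 CPM was at least 2-fold lower in each labelled knockdown library, against 2.72% of all genes. In edgeR's test the smallest adjusted p among the genes named here was 0.358.

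**Figure D5:**
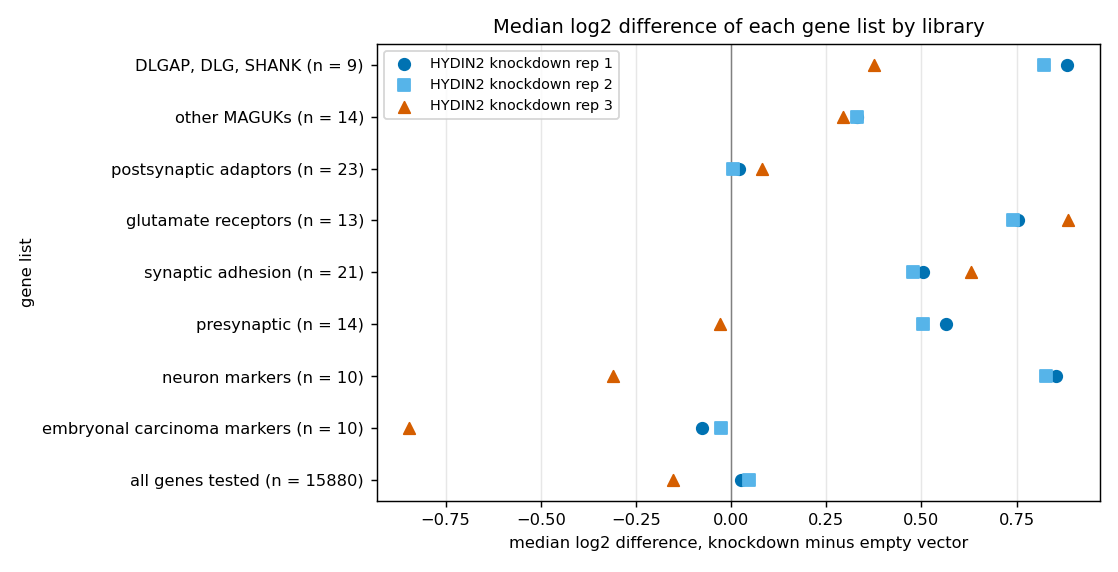
Median log2 difference of each gene list from the empty vector library, by labelled knockdown replicate, with the number of genes at or above 1 CPM. Scaffold, presynaptic, neuron marker and embryonal carcinoma marker medians lie lower in replicate 3 than in replicates 1 and 2, as does that of all genes tested. Glutamate receptor, adhesion and adaptor medians do not, and that of other guanylate kinases is only slightly lower.

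Of the genes of these lists, ADGRL1, SIPA1L1 and GRIP1 lay nearest to DLGAP1 in their 3 log2 differences, at Euclidean distances of 0.158, 0.347 and 0.352 among 88 candidates. ADGRL1, a latrophilin that binds SHANK proteins, had log2 differences of 1.04, 0.85 and 0.63. SIPA1L1, a spine protein also called SPAR, had 0.61, 0.62 and 0.65, and GRIP1, an AMPA receptor adaptor, had 0.63, 0.71 and 0.83. These distances rest on 4 libraries and describe them only.

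All 10 markers of embryonal carcinoma cells, among them POU5F1, NANOG and LIN28A, had counts in every library. They summed to 7157 CPM under the empty vector, 7284 and 7520 CPM in labelled knockdown replicates 1 and 2, and 4302 CPM in replicate 3. LIN28A carried much of that sum, with 2844, 3513, 3620 and 1912 CPM. The median log2 differences of the list were -0.08, -0.03 and -0.84. Of the 10 markers, 5 were lower in each labelled knockdown library, against 34.2% of all genes. DNMT3B, a DNA methyltransferase, was at least 2-fold lower in each, with 794.7 CPM against 339.8, 350.4 and 349.4 CPM. The 10 neuron markers, none of them at 0, summed to 159.6 CPM with the empty vector and to 214.6, 216.6 and 135.6 CPM in replicates 1, 2 and 3, with replicates 1 and 2 highest and replicate 3 lowest, as for DLG3 and DLG4. Their median log2 difference was 0.85, 0.83 and -0.31 in the 3 replicates. Of these 10 markers, 3 were higher in each labelled knockdown library, against 30.1% of all genes, and 2 were lower in each, against 34.2%. STMN2, a marker of neurons, had between 0.333 and 2.71 CPM. Of 8 neural progenitor markers, 3 were at 0 in the empty vector library (PAX6, NEUROG2 and HES5) and HES5 was at 0 in all 4. PAX6, a regulator of neural development, had 0 counts with the empty vector and 15.4, 13.1 and 2.95 CPM in the replicates. The list summed to 190.2 CPM with the empty vector and 335.8, 318.1 and 295.5 CPM in the replicates. Only 4 of its 8 genes reached a mean of 1 CPM, with median log2 differences of 0.60, 0.60 and 0.37. The 8 glial markers summed to 62.2, 136.4, 142.0 and 24.3 CPM, but only 3 of them reached a mean of 1 CPM. Those 3 had median log2 differences of -0.11, -0.09 and -1.32 in replicates 1, 2 and 3. Of the 3, 2 were lower in each labelled knockdown library, against 34.2% of all genes. The 6 fibroblast markers summed to 142.2, 262.2, 240.2 and 210.4 CPM with DCN at or near 0 in all. The 5 of them that reached a mean of 1 CPM had median log2 differences of 0.52, 0.59 and 0.52. The markers named singly were picked after their values were seen. In RNA of whole cultures, more cells of a type and more RNA per cell cannot be told apart, and the part of these cell types in the scaffold differences was not tested.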

How the data were processed

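Raw counts per gene were deposited by the authors, as whole numbers in a separate file for every library. Per the submitters' processing notes, the tools named are STAR 2.7.11b, featureCounts 2.0.6 and DESeq2 and the build is GRCh38; the annotation release and strand setting are not given in the sources used here. Per the labels' protocols, 100 ng of total RNA was depleted of ribosomal RNA and made into strand-specific libraries with 13 PCR cycles. Column names per the file headers (a LacZ control, GKAP_KIF27 sets) do not match the titles, so groups were taken from the titles.

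Counts were scaled to CPM with TMM factors (edgeR 4.0.16, R 4.3.3), which ran from 0.953 to 1.09, and log2 values used a prior count of 2. Tests were edgeR's quasi-likelihood test on all 4 libraries, DESeq2 1.42.0 and voom in limma 3.58.1. On simulated data edgeR's test recovered large changes at the spread of replicates 1 and 2 but missed most of them at the spread of all 3 labelled knockdown libraries, so its lack of calls does not show a lack of change. Between 65.2% and 68.0% of nonzero counts were even, so both reads of a pair may have been counted. Ratio intervals (95%, exact Clopper-Pearson) for that reason used counts divided by 2; they compare libraries and cover counting error only. Coordinates, lengths and GC came from GENCODE 29 (58269 of 62696 identifiers matched, without version). Trends were removed by lowess (span 0.3) on transcript length, then GC. Named genes are the scaffolds, HYDIN2, list genes 2-fold apart in each labelled knockdown library (at most 4 per list), the 3 genes nearest DLGAP1, genes on the other strand and those stated as picked later. Genes, lists and alternatives were chosen with earlier results of these data known. Some genes that the rule names are not reported here.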

Additional observations from a re-analysis of the deposited data

How the results depend on the processing

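At 1.5-fold instead of 2-fold, 3 scaffold genes were higher in each labelled knockdown library. Leaving out 1 replicate gave 0 to 2 genes at least 2-fold higher, the 2 (DLG4 and SHANK1) without replicate 3. The number of scaffold genes below the empty vector library in every labelled knockdown library went from 1 to 3 after removal of length and GC trends. At that setting 32.7% of all genes lay so. The number was 1 to 2 when 1 replicate was left out, with SHANK3 added without replicate 3, where 44.1% of all genes lay so. Trend removal turned the mean log2 difference of SHANK2 to -0.18 and that of DLGAP2 to -0.53, and leaving out 1 replicate gave -0.0908 to 0.244 for DLGAP2, below 0 without replicate 1; the cause was not tested. Of 90 other values of the scaffold genes' mean differences, 83 lay within 1 SD, 4 lay further away with the same sign and 3 changed sign. Of those 4, DLGAP1 (0.41), DLG2 (0.35) and DLGAP4 (0.35) came closer to 0 after trend removal, and DLGAP4 was larger with total counts (0.51). The 90 include means without 1 replicate, which reuse the same differences and cannot lie further than 1 SD away. Their closeness was thus fixed in advance and shows no stability. DESeq2 called 271 genes, and edgeR without 1 replicate called 17 to 11177, the most without replicate 3, where only the spread of replicates 1 and 2 remains and the lone empty vector library is assumed to vary like them. Scaling by total counts moved the median log2 difference of all genes in replicate 3 from -0.15 to 0.04 and changed the sign of no scaffold gene's mean. No paired analysis was possible because only 1 library carries the empty vector, with no replicate number in its label. At 22 to 83 counts, depth limits any statement on DLGAP2.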

Other observations

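Relatives of the scaffolds outside the set of 10 were also present. DLG1 (SAP97), the family member common in epithelia, had 139.8 CPM with the empty vector and 173.6, 178.7 and 154.6 CPM in labelled knockdown replicates 1, 2 and 3. Per kilobase of the longest transcript it lay above every one of DLG2, DLG3 and DLG4 in each library. With all annotated exons merged, DLG3 was above DLG1 in replicate 1, at 16.4 against 15.8 CPM per kilobase. DLG5, a junction protein, was at least 2-fold higher in each labelled knockdown library, with 16.9 CPM against 42.8, 35.3 and 48.3 CPM. After removal of length and GC trends its log2 differences were 1.01, 0.81 and 0.93, and its adjusted p in edgeR's test was 0.358. DLGAP5, a mitotic spindle protein also called HURP, had 104.5 CPM with the empty vector and 98.6, 97.3 and 71.6 CPM in the replicates.

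Unlike DLG3 and DLG4, some partner genes were higher in replicate 3 than in every other library. These genes and SYP were picked after their values were seen. IQSEC2, an Arf exchange factor of the postsynaptic density, had 34.7 CPM with the empty vector, 16.2 and 16.9 CPM in labelled knockdown replicates 1 and 2, and 101.2 CPM in replicate 3. NLGN4X, a neuroligin, had 79.9, 133.2, 126.0 and 263.7 CPM in the same order, and GRIK3, a kainate receptor subunit, had 32.2, 27.4, 23.4 and 90.1 CPM. SYP, a synaptic vesicle protein, was high in replicates 1 and 2 and low in the other libraries, as DLG3 and DLG4 were. It had 5.29, 17.7, 18.7 and 3.97 CPM.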
